A study of Mus musculus with 16 samples.

Results

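Cytosolic heat-shock proteins are the molecular chaperones of the cytosol and nucleus together with the partner proteins that drive their cycle. The 10 genes described here were picked by name, with earlier results of these data known, from the 36722 genes of the deposited table: Hspa8, Hsph1, Hspa1a, Hspa1b, Hsp90aa1, Hsp90ab1, Dnajb1, Hspb1, Hspb8 and Bag3. All 10 were found in the table. They were followed over 16 libraries of polyA-selected RNA from lumbar dorsal root ganglia, where sensory neurons of the hindlimb have their cell bodies, wrapped by glia. All mice were C57BL/6 and all had received an intraplantar injection of 20 µl of 2% carrageenan, which inflames the paw. After 6 days they were given PBS intrathecally (vehicle, 5 libraries), 1 µg of the fusion protein IL4-10 FP (6 libraries) or 0.5 µg each of unlinked IL4 and IL10 (combination, 5 libraries), and the ganglia were taken 6 hours after that injection. Every group therefore carries the inflammation, and no ganglia without carrageenan enter these comparisons. The labels do not give age or sex, and they do not say whether each library is 1 mouse or a pool, so the p-values measure the spread between these libraries, which may be technical.

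Hsp70 proteins bind short hydrophobic stretches of unfolded protein in cycles of ATP hydrolysis. J-domain proteins start the cycle and nucleotide exchange factors end it. Hsp90 proteins take over later folding steps of many kinases and receptors, and small heat-shock proteins hold unfolded protein without using ATP. Some of these genes are expressed at all times and others are switched on by heat-shock factor 1, which binds repeats of the unit nGAAn, called heat-shock elements, upstream of its targets. In sensory neurons, Hspb1 is known as a gene that rises after nerve injury and whose mutations, like those of Hspb8, cause inherited neuropathy.

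The upstream sequences show which of these genes carry heat-shock element letters close to their start, and how alike both inducible Hsp70 genes are. RefSeq start sites of build GRCm38.p6 were matched for 7 of the 10 genes, all but Hspa8, Hsp90aa1 and Hsp90ab1. The 250 bases before each start were searched on both strands for a pair of facing units, spelled GAANNTTC or TTCNNGAA, and for a row of 3 units, spelled GAANNTTCNNGAA. A window that holds the longer spelling holds both shorter ones as well. A pair was found in the windows of Hsph1, Hspa1a, Hspa1b and Hspb1, as shown here with the pair in capitals, 5′ to 3′ on the strand of the gene. The first is chr5:149636352-149636379 (minus strand), the next chr17:34972243-34972270 (minus), then chr17:34959325-34959352 (minus), and the last chr5:135887792-135887839 (plus).
Hsph1: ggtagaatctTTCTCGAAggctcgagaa
Hspa1a: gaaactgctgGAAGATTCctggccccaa
Hspa1b: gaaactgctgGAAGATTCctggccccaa
Hspb1: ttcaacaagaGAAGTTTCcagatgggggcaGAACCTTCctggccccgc

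The stretches of Hspa1a and Hspa1b are the same letters at the same distance, with the pair starting 104 bases before the start of each gene. The pairs of Hspb1 start 117 and 97 bases before its start. That of Hsph1 starts 33 bases before the more upstream of its 2 RefSeq starts, and the GENCODE model of Hsph1 begins within the stretch shown. Over 32851 windows of this length, 6.69% held GAANNTTC and 7.17% held TTCNNGAA. The row of 3 units was in 0.466% of windows and in none of these 7 genes. The windows of Dnajb1, Hspb8 and Bag3 held none of the 3 spellings, which says only that these letters are not in the window. Bag3 is the gene among the 10 that fell in both treated groups, and the 100 bases before its RefSeq start (chr7:128523483-128523582, plus strand) are given to set beside the others.
Bag3: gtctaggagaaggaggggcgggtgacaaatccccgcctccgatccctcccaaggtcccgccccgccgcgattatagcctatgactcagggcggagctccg

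Values are given on a pair of scales. The deposited values are variance-stabilised log2 values, and every one of them maps back to a whole number within 0.01, called the scaled value here. It is not a read count, and the step that scaled it is not given in the sources used here. The scaled values of a library summed to 17.8 ± 0.612 M (mean ± SD, n = 5) with vehicle, to 17.8 ± 0.756 M (n = 6) with the fusion protein and to 19.6 ± 0.973 M (n = 5) with the combination. The read depth is unknown, so no counting interval is given. Genes were tested on the log2 scale with limma, two-sided, with Benjamini-Hochberg adjustment over 13385 genes, and a gene is said to rise or fall where the adjusted p was under 0.05. Differences are log2 differences of group means ± SE. Each sample also carries a number in its label, either 1 to 8 or 12 to 19. The later numbers belong to every combination library, to fusion protein replicates 5 and 6 and to vehicle replicate 5, and what the numbers stand for is not given in the sources used here.

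Against vehicle, Hspa8 rose and Bag3 fell in the fusion protein group, which is 2 of the 10 genes, while 25.8% of all tested genes changed. In the combination group Hspa8, Hsph1 and Hsp90aa1 rose and Bag3 fell, which is 4 of the 10, against 36.5% of all tested genes. Between both treated groups Hspa1b and Hspb1 were higher with the fusion protein, which is 2 of the 10, against 29.5% of all tested genes. These shares are near or below those of all genes, so the number of changed genes is not a result about this group, and the data lie in the single genes. All 10 passed the filter on low values. The median log2 difference of all tested genes was -0.02, 0.06 and -0.09 in the 3 comparisons in this order. The plot of scaled values shows each gene in each library.

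**Figure D1:**
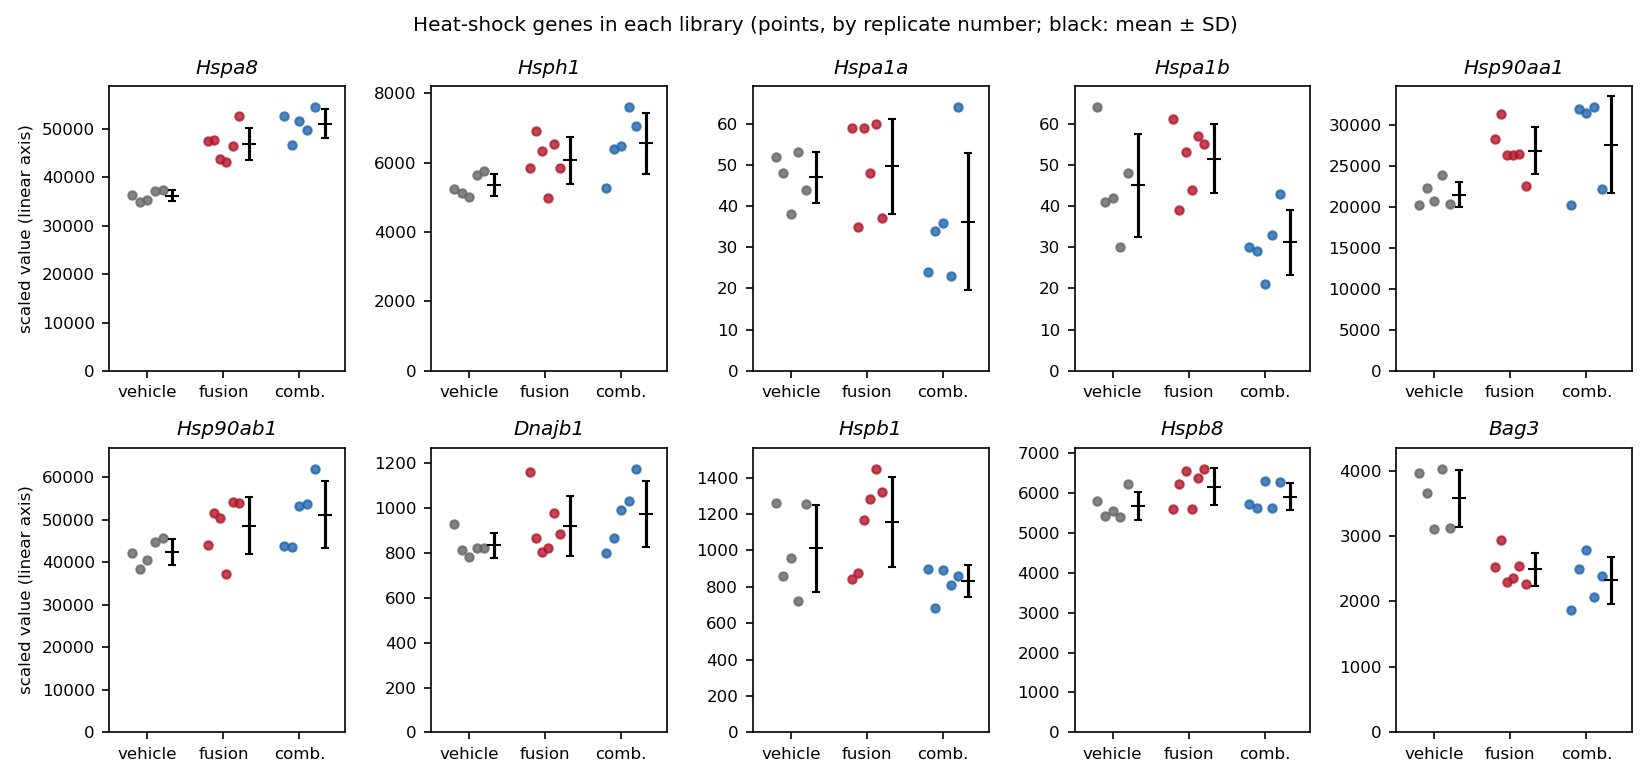
Scaled value (linear vertical axis, starting at 0) of each of the 10 genes in the 5 vehicle, 6 fusion protein and 5 combination libraries. Points are libraries in the order of their replicate numbers and the black marks are the mean ± SD. All 11 treated libraries lie above every vehicle library for Hspa8 and below every one for Bag3.

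The levels of these genes in the ganglia span a wide range. They are given per kilobase of all annotated exons joined, which can exceed the length of the main transcript. Hsph1 has 7266 such bases over 11 transcripts. Every place, also among the 4 highest, may depend on this length and on how reads shared with other genes were counted. Of the 50-base windows in its transcripts, Hspa8 shares 38.6% with other genes, Hsp90aa1 47.5%, Hspb1 48.8% and Hsp90ab1 3.44%. How far this moves the order was not tested. Per kilobase of exon, Hsp90ab1 had the highest value in vehicle libraries with a mean scaled value of 14122, ranging from 12807 to 15268. Hspa8 followed at 8415, Hsp90aa1 at 5469 and Hspb8 at 2910 per kilobase, and none of these 4 overlapped its neighbour in any group. Bag3 at 1395, Hspb1 at 980 and Hsph1 at 736 overlapped their neighbours, Dnajb1 lay at 260, and Hspa1b at 16.1 and Hspa1a at 15.8 overlapped each other. The 4 highest places and the place of Dnajb1 were the same in all 3 groups. The order of the middle genes was not: with Bag3 at 972 and Hspb1 at 1120 per kilobase in the fusion protein group, Hspb1 came before Bag3, although their ranges still overlapped.

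Hspa8 encodes the constitutive Hsp70 of the cytosol, Hsc70, which also uncoats clathrin vesicles (ENSMUSG00000015656, GRCm38 chr9:40800984-40810087, plus strand). Its scaled value was 36258, 34856, 35353, 37182 and 37307 in vehicle replicates 1 to 5. In the fusion protein group it ran from 43173 over a median of 46960 to 52670. In combination replicates 1 to 5 it was 52751, 46688, 51679, 49758 and 54506. The lowest treated library lay above the highest vehicle library, and the vehicle libraries were close together. The mean scaled value was 36191 ± 1086 (SD, n = 5) in vehicle, 46894 ± 3393 (n = 6) with the fusion protein and 51076 ± 2997 (n = 5) with the combination, or 1.30 and 1.41 times vehicle. On the log2 scale Hspa8 rose by 0.37 ± 0.07 with the fusion protein (limma adjusted p = 0.00071) and by 0.49 ± 0.07 with the combination (limma adjusted p = 4.38e-05). The difference of -0.12 between fusion protein and combination did not pass (limma adjusted p = 0.156, 95% confidence interval -0.26 to 0.02).

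Within the samples numbered 1 to 8, which hold no combination library, Hspa8 also rose with the fusion protein, by 0.34 (limma adjusted p = 0.0175). Within those numbered 12 to 19 the difference was 0.41 for the fusion protein (adjusted p = 0.269) and 0.45 for the combination (adjusted p = 0.0858), with 1 vehicle library on the other side, so that neither call held there. Of the 50-base windows in the transcripts of Hspa8, 38.6% also occur in transcripts of other genes, mostly of Gm15459, which was not analysed here. The level of Hspa8 is uncertain to the extent that reads were split between such genes or left uncounted.

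Hsph1 encodes Hsp110, a large relative of Hsp70 that exchanges its nucleotide and helps to dissolve aggregates (ENSMUSG00000029657, GRCm38 chr5:149614287-149636376, minus strand). Its scaled value was 5227, 5113, 5019, 5629 and 5747 in vehicle replicates 1 to 5. It ran from 4967 over a median of 6086 to 6907 with the fusion protein. In combination replicates 1 to 5 it was 5256, 6401, 6462, 7595 and 7052. Of the combination libraries 4 of 5, all but replicate 1, lay above every vehicle library, and of the fusion protein libraries 5 of 6, all but replicate 4, which was the lowest of all 16. Hsph1 rose by 0.28 ± 0.09 with the combination (limma adjusted p = 0.0264). With the fusion protein the difference was 0.17 ± 0.09 (limma adjusted p = 0.168), and the difference between both treatments was -0.11 (adjusted p = 0.368). The combination call was lost in 10 of 30 alternative analyses, for example with the late sample number as a covariate (0.22, limma adjusted p = 0.191), with quantile normalization (0.12, adjusted p = 0.175) and without combination replicate 4 (0.22, adjusted p = 0.0834). No window of 50 bases in its transcripts occurs in another gene.

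Hspa1a and Hspa1b encode the stress-inducible Hsp70 and lie 9951 bases apart on chromosome 17, at GRCm38 chr17:34969190-34972156 and chr17:34956436-34959238, both on the minus strand (ENSMUSG00000091971 and ENSMUSG00000090877). Their coding sequences are 99.4% identical over 1929 aligned columns, and 247 of the 250 bases before their starts are the same. Of the 50-base windows of Hspa1a, 60.3% occur in another gene, nearly all of them in Hspa1b, so the share of reads given to each gene is uncertain. Both genes were near the floor of the table, where the transform compresses differences. The stress-inducible genes were thus present at a very low level in all groups, at about the level of a gene that barely passed the filter.

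Hspa1a had scaled values of 52, 48, 38, 53 and 44 in vehicle replicates 1 to 5. With the fusion protein the values ran from 35 over a median of 53.5 to 60. In the combination they were 24, 34, 36, 23 and 64, with 4 libraries below every vehicle library and replicate 5 above every one. The difference was 0.03 ± 0.09 for the fusion protein (limma adjusted p = 0.857) and -0.16 ± 0.09 for the combination (limma adjusted p = 0.195), and neither passed. Without combination replicate 5 the latter became -0.25 (limma adjusted p = 0.0245), so that this library decided the call.

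Hspa1b had scaled values of 64, 41, 42, 30 and 48 in vehicle replicates 1 to 5. The fusion protein values ran from 39 over a median of 54.0 to 61. In the combination they were 30, 29, 21, 33 and 43. Of the fusion protein libraries, 5 of 6 lay above every combination library, while the vehicle libraries spread across both groups. Hspa1b was higher with the fusion protein than with the combination by 0.27 ± 0.08 (limma adjusted p = 0.0182), or by 0.72 when log2 of the scaled value plus 1 is used, a scale without that compression. Against vehicle it differed by 0.08 ± 0.08 with the fusion protein (limma adjusted p = 0.452) and by -0.19 ± 0.08 with the combination (limma adjusted p = 0.0796). The sum of Hspa1a and Hspa1b does not depend on how reads were split between them, but would miss reads left uncounted. It ran from 80 to 116 in vehicle, from 74 to 120 in fusion protein and from 54 to 107 in combination libraries. Of the last group 4 of 5 libraries, at 54, 63, 57 and 56, lay below every library of the other groups. Combination replicate 5, at 107, lay within their range.

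GC content moved with this comparison. The GC content of Hspa1a is 58.95%, of Hspa1b 58.12% and of Hspb1 59.64%, against a median of 45.74% over tested genes. The slope of vehicle libraries on GC content was 0.05 ± 0.07 log2 units per SD of GC (SD, n = 5), that of fusion protein libraries 0.03 ± 0.07 (n = 6) and that of combination libraries -0.08 ± 0.05 (n = 5). With the trends of each library on GC content and length removed, the difference of Hspa1b between both treatments was 0.08 (limma adjusted p = 0.549), and the differences of Hspa1a and Hspa1b from vehicle in the combination turned to 0.12 and 0.06.

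Hsp90aa1 and Hsp90ab1 encode the inducible and the constitutive form of cytosolic Hsp90. Hsp90aa1 (ENSMUSG00000021270, GRCm38 chr12:110690605-110702728, minus strand) had scaled values of 20269, 22342, 20714, 23858 and 20309 in vehicle replicates 1 to 5. Fusion protein libraries ran from 22560 over a median of 26358 to 31288, and 5 of 6 lay above every vehicle library. In combination replicates 1 to 5 it was 20167, 31960, 31395, 32151 and 22134. The combination libraries thus fell apart into 3 at 31395 and above and 2, replicates 1 and 5, at the vehicle level.

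Hsp90aa1 rose by 0.33 ± 0.12 with the combination (limma adjusted p = 0.0396), while the difference of 0.31 ± 0.12 with the fusion protein missed the threshold (limma adjusted p = 0.0534). Both values lie so close to the threshold that the settings decide. The combination call was lost in 14 of 30 alternatives and the fusion protein call was gained in 11 of 31. Without combination replicate 4, for example, the former was 0.27 (limma adjusted p = 0.113), and without fusion protein replicate 6 the latter was 0.36 (limma adjusted p = 0.0342). The treatments differed from each other by -0.02 (limma adjusted p = 0.922, 95% confidence interval -0.26 to 0.23). Of its 50-base windows 47.5% occur in other genes, mostly in the transcribed pseudogene Gm12346, whose scaled value was 79.4 ± 7.16 in vehicle (n = 5), 70.5 ± 13.0 with the fusion protein (n = 6) and 88.4 ± 3.21 with the combination (SD, n = 5).

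Hsp90ab1 (ENSMUSG00000023944, GRCm38 chr17:45567775-45573271, minus strand) had scaled values of 42197, 38409, 40507, 44858 and 45790 in vehicle replicates 1 to 5. The fusion protein libraries ran from 37326 over a median of 51020 to 54208. In the combination it was 43734, 43473, 53117, 53797 and 62017. Of the fusion protein libraries 4 of 6, and of the combination libraries 3 of 5, lay above every vehicle library, while fusion protein replicate 4 was the lowest of all 16. The differences of 0.19 ± 0.11 with the fusion protein (limma adjusted p = 0.202) and 0.26 ± 0.11 with the combination (limma adjusted p = 0.0704) did not pass. The latter depended on the setting: it was 0.29 with trends on GC content and length removed (limma adjusted p = 0.0418), 0.32 without combination replicate 1 (adjusted p = 0.0334) or 2 (adjusted p = 0.0433), 0.068 with quantile normalization (adjusted p = 0.451) and 0.095 with the late sample number as a covariate (adjusted p = 0.623). Without fusion protein replicate 4, which enters neither of these means, the difference of 0.26 passed (limma adjusted p = 0.0411).

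The ratio of Hsp90ab1 to Hsp90aa1, taken within a library, was 1.98 ± 0.203 for vehicle (SD, n = 5), 1.83 ± 0.359 for the fusion protein (n = 6) and 1.94 ± 0.562 for the combination (n = 5). In the combination it ran from 1.36 in replicate 2 to 2.80 in replicate 5, so that both genes did not go up and down together within that group. The map of deviations shows this as rows that differ in which libraries are dark.

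**Figure D2:**
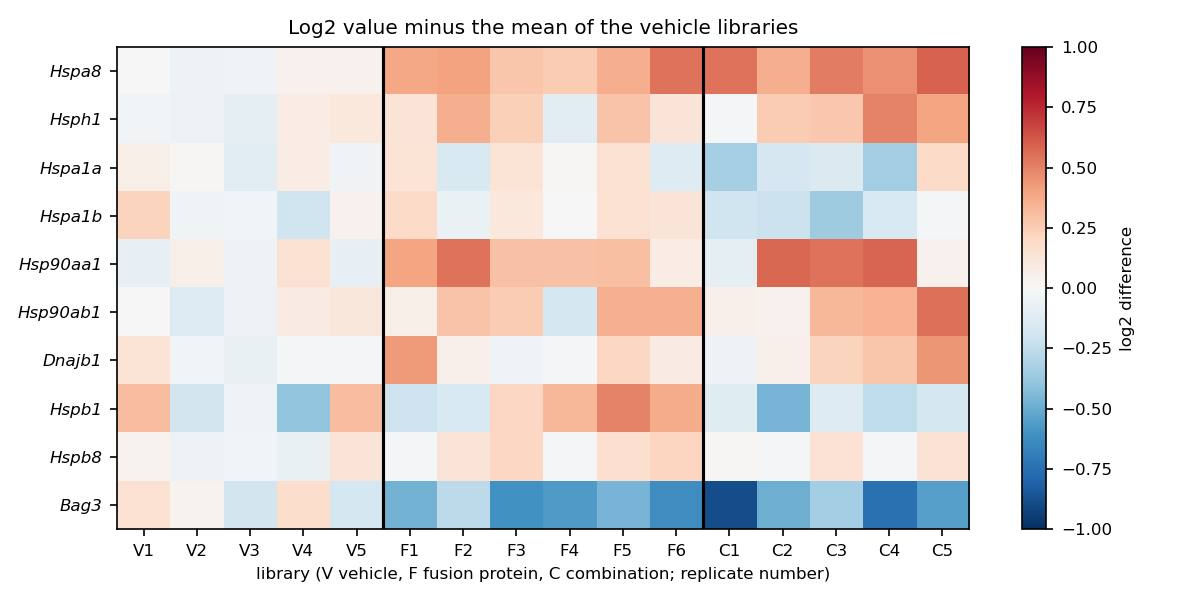
Log2 value of each gene (rows) in each library (columns: V vehicle, F fusion protein, C combination, with the replicate number) minus the mean of the vehicle libraries, red for higher and blue for lower values, with black lines between the groups. Hspa8 runs from 0.25 to 0.59 in all treated libraries and Bag3 from -0.89 to -0.26, while Hsp90aa1 is at -0.09 in combination replicate 1 and 0.58 in replicate 4.

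Dnajb1 encodes Hsp40, a J-domain protein that hands substrates to Hsp70 and starts its ATP hydrolysis (ENSMUSG00000005483, GRCm38 chr8:83608193-83612653, plus strand). Its scaled value was 928, 813, 783, 825 and 822 in vehicle replicates 1 to 5. With the fusion protein it ran from 807 over a median of 878 to 1162, and in the combination it was 799, 866, 991, 1033 and 1177. In the fusion protein group 2 of 6 libraries, and in the combination group 3 of 5, lay above every vehicle library. The difference was 0.12 ± 0.09 with the fusion protein (limma adjusted p = 0.352, 95% confidence interval -0.07 to 0.31) and 0.19 ± 0.10 with the combination (limma adjusted p = 0.131, interval -0.01 to 0.39), and neither passed. The combination difference passed with trends on GC content and length removed (0.31, limma adjusted p = 0.0292) and without combination replicate 1 (0.25, limma adjusted p = 0.043).

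Hspb1 encodes Hsp27 (mouse Hsp25), a small heat-shock protein that protects actin filaments and blocks cell death (ENSMUSG00000004951, GRCm38 chr5:135887919-135889563, plus strand). Its scaled value was 1258, 860, 958, 724 and 1252 in vehicle replicates 1 to 5, a wide spread. It ran from 840 over a median of 1222.5 to 1449 with the fusion protein. In the combination it was 899, 684, 893, 812 and 861. Fusion protein replicates 3 to 6 lay above every combination library, while replicates 1 and 2 lay among them.

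Hspb1 was higher with the fusion protein than with the combination by 0.41 ± 0.14 (limma adjusted p = 0.0385), with mean scaled values of 1155 ± 247 (SD, n = 6) and 830 ± 88.5 (n = 5). Against vehicle, at 1010 ± 238 (n = 5), the difference was 0.18 ± 0.14 with the fusion protein (limma adjusted p = 0.373) and -0.23 ± 0.15 with the combination (limma adjusted p = 0.234). With the late sample number as a covariate, the combination difference from vehicle passed (limma adjusted p = 0.0158). The call between both treatments was lost in 12 of 30 alternatives, among them the removal of trends with GC content and length (0.15, limma adjusted p = 0.217) and, at 0.34, the omission of fusion protein replicate 5 (adjusted p = 0.0841). Within the samples numbered 12 to 19 the same difference was 0.67, with 2 fusion protein and 5 combination libraries. The difference of combination minus vehicle was -0.54 there, with 1 vehicle library. Of the 50-base windows of Hspb1 48.8% occur in the pseudogene Hsp25-ps1, which had a mean scaled value of 3.2 with vehicle, 3.67 with the fusion protein and 3 with the combination.

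Hspb8 encodes Hsp22, the small heat-shock protein that forms a complex with Bag3 (ENSMUSG00000041548, GRCm38 chr5:116408491-116422864, minus strand). Its scaled value was 5803, 5422, 5546, 5389 and 6215 in vehicle replicates 1 to 5. It ran from 5585 over a median of 6296.5 to 6608 with the fusion protein and was 5728, 5626, 6294, 5616 and 6272 in the combination. In the fusion protein group 4 of 6 libraries, and in the combination group 2 of 5, lay above every vehicle library, and the others lay within the vehicle range. The differences from vehicle were 0.11 ± 0.07 with the fusion protein (limma adjusted p = 0.219, 95% confidence interval -0.03 to 0.25) and 0.06 ± 0.07 with the combination (limma adjusted p = 0.55, interval -0.09 to 0.20).

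Bag3 encodes a nucleotide exchange factor that binds Hsp70 and small heat-shock proteins together and directs their substrates to autophagy (ENSMUSG00000030847, GRCm38 chr7:128523616-128546981, plus strand). Its scaled value was 3956, 3649, 3113, 4029 and 3125 in vehicle replicates 1 to 5. In the fusion protein libraries it ran from 2266 over a median of 2443 to 2945. In combination replicates 1 to 5 it was 1867, 2496, 2785, 2071 and 2384. The highest treated library, fusion protein replicate 2, lay below the lowest vehicle library. The mean scaled value was 3574 ± 440 (SD, n = 5) in vehicle, 2490 ± 251 (n = 6) with the fusion protein and 2321 ± 360 (n = 5) with the combination, or 0.697 and 0.649 times vehicle.

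On the log2 scale Bag3 fell by 0.50 ± 0.10 with the fusion protein (limma adjusted p = 0.00136) and by 0.60 ± 0.10 with the combination (limma adjusted p = 0.000219). Of the 13385 tested genes, 204 had a more negative difference with the fusion protein and 201 with the combination. Both differences rest on the same vehicle libraries. The treatments differed by 0.10 ± 0.10 (limma adjusted p = 0.417, 95% confidence interval -0.10 to 0.31). Within the samples numbered 1 to 8 Bag3 fell by 0.52 with the fusion protein (limma adjusted p = 0.0107). Within those numbered 12 to 19 the differences were -0.36 (adjusted p = 0.389) and -0.42 (adjusted p = 0.134), with 1 vehicle library. No window of 50 bases in its transcript occurs in another gene.

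Skeletal muscle is known to express Bag3 strongly, and its markers were set beside this result. The summed scaled value of Acta1, Ckm, Myh1, Myh4, Tnnt3, Actn3 and Mb ran from 45 to 3497 in vehicle, from 49 to 976 in fusion protein and from 44 to 932 in combination libraries. None of the 5 that could be tested passed in either comparison with vehicle, and none of the 7 was undetected throughout a group. The lowest and highest muscle sums in vehicle, 45 in replicate 3 and 3497 in replicate 4, went with Bag3 values of 3113 and 4029. With the fusion protein they were 49 in replicate 2 and 976 in replicate 4, with Bag3 at 2945 and 2360. With the combination they were 44 in replicate 5 and 932 in replicate 4, with Bag3 at 2384 and 2071. Of each pair, the library with more muscle RNA had the higher Bag3 value in vehicle and the lower in both treated groups. Without vehicle replicate 4 Bag3 differed from vehicle by -0.45 with the fusion protein (limma adjusted p = 0.00515) and by -0.56 with the combination (limma adjusted p = 0.000669). The part of muscle RNA in the Bag3 difference was not tested. In bulk RNA of a ganglion, fewer cells of a type and less RNA per cell cannot be told apart for Bag3 or any other gene.

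**Figure D3:**
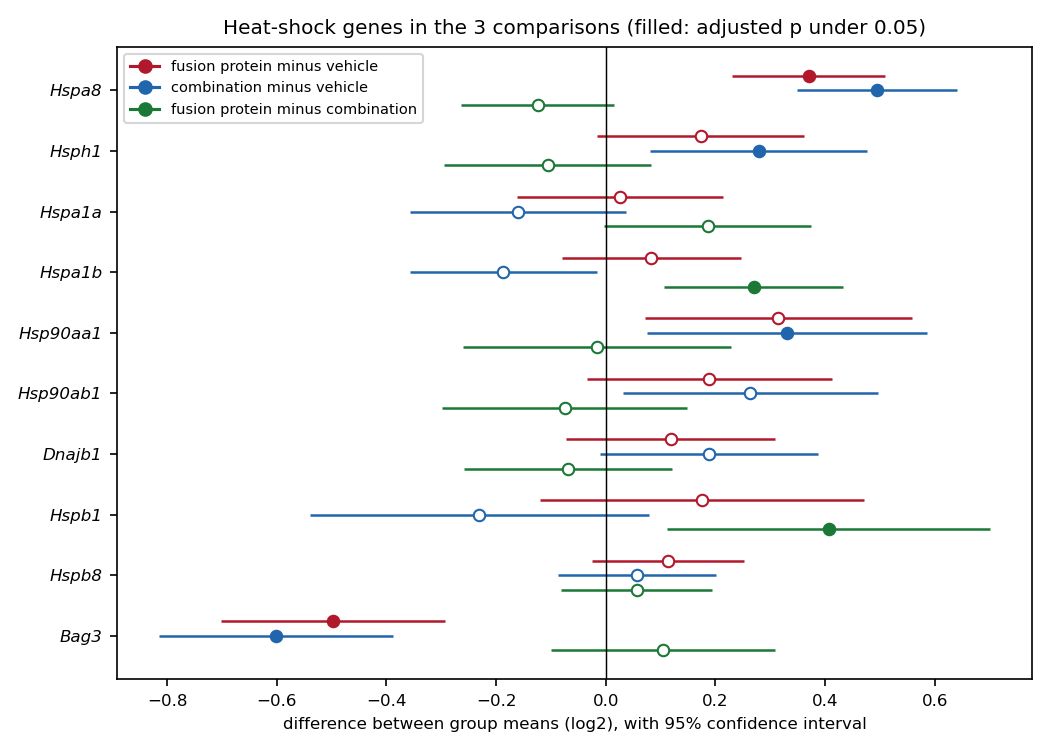
Log2 difference between group means (horizontal axis) of each gene in the 3 comparisons, with the 95% confidence interval of limma. Filled circles passed an adjusted p of 0.05. Bag3 lies at -0.50 and -0.60 against vehicle and Hspa8 at 0.37 and 0.49, and most of the other intervals include 0.

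Set side by side, the genes that work in 1 complex did not share 1 pattern. Bag3 fell in both treated groups while its partner Hspb8 differed from vehicle by 0.11 and 0.06 without passing, and its partner Hspa8 rose. Among the genes known to be heat-inducible, Hsph1 and Hsp90aa1 rose with the combination and Bag3 fell with both treatments. In the fit of all 16 libraries without covariates, Hspa1a, Hspa1b, Dnajb1 and Hspb1 did not pass against vehicle with either treatment.

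Correlations of the 45 pairs were taken over deviations from the group means in the 16 libraries and are given as a description. Libraries may share effects of their preparation, which is not known. Their slopes on GC content also differed within groups, from -0.03 to 0.15 in vehicle and from -0.05 to 0.10 in fusion protein libraries. The part of these slopes in the correlations was not tested. Hsp90ab1 went with Hsph1 (Pearson r = 0.78, Spearman rho = 0.72) and with Hspb8 (r = 0.74, rho = 0.63), and without the 2 libraries farthest from the median of 1 gene of the pair these were 0.59 and 0.65. Hsp90ab1 also went with Hspa8 (r = 0.62, rho = 0.60, and 0.53 without 2 libraries). Hsp90aa1 stood at r = -0.07 with Hsp90ab1 (rho = -0.13, and r = -0.40 without 2 libraries) and ran opposite to Hspb1 (r = -0.53, rho = -0.59, and -0.60 without 2 libraries). Hsp90aa1 and Bag3, which differ in opposite directions from vehicle, went together within groups (r = 0.59, rho = 0.46, and 0.62 without 2 libraries).

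The 3 genes whose log2 values were most like each of these over the 16 libraries include group differences. For Hspa8 they were Rpl4, a ribosomal protein (r = 0.989), Mcfd2, a cargo receptor subunit of the secretory route (r = 0.987), and Fdps, an enzyme of isoprenoid synthesis (r = 0.977). For Bag3 they were Fam102a (r = 0.968), Slc45a4 (r = 0.966) and Scrt2 (r = 0.962). For Hsph1 the list was led by Prkar1a, a regulatory subunit of protein kinase A (r = 0.957), and held the J-domain gene Dnaja2 (r = 0.925). Hsp90aa1 was most like Nsrp1 (r = 0.984), a splicing regulator, Hsp90ab1 most like Acly (r = 0.969), which makes acetyl-CoA in the cytosol, and Hspb1 most like Ckb (r = 0.974), the brain creatine kinase. Hspb8 was led by Tmem11 (r = 0.916) and Dnajb1 by Fam167a (r = 0.857). The values of Hspa1b at r = 0.897 with Nr1h3 and of Hspa1a at r = 0.731 with Sec24d were lower. With deviations from the group means in place of values, the leading gene stayed the same for Hspa8 (Rpl4, r = 0.915), Hsph1 (Prkar1a, r = 0.948), Hspa1b (Nr1h3, r = 0.873) and Dnajb1 (Fam167a, r = 0.89), and Bag3 was then led by Hnrnpa0 and Ubqln2 (both r = 0.918).

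The wider chaperone network was described by 11 lists with 83 other genes, of which 77 were tested. With the fusion protein 32 rose, 1 fell and 44 did not pass, with a median difference of 0.18. With the combination 44 rose, 7 fell and 26 did not pass, with a median of 0.27. These are the same vehicle libraries in both cases, and among all tested genes 12.0% rose and 13.7% fell with the fusion protein, and 24.2% rose and 12.3% fell with the combination. The medians of all tested genes were -0.02 and 0.06. Within the samples numbered 12 to 19 no gene of these lists passed with the fusion protein and 9 with the combination, while 1.85% and 5.71% of all genes tested there passed.

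**Figure D4:**
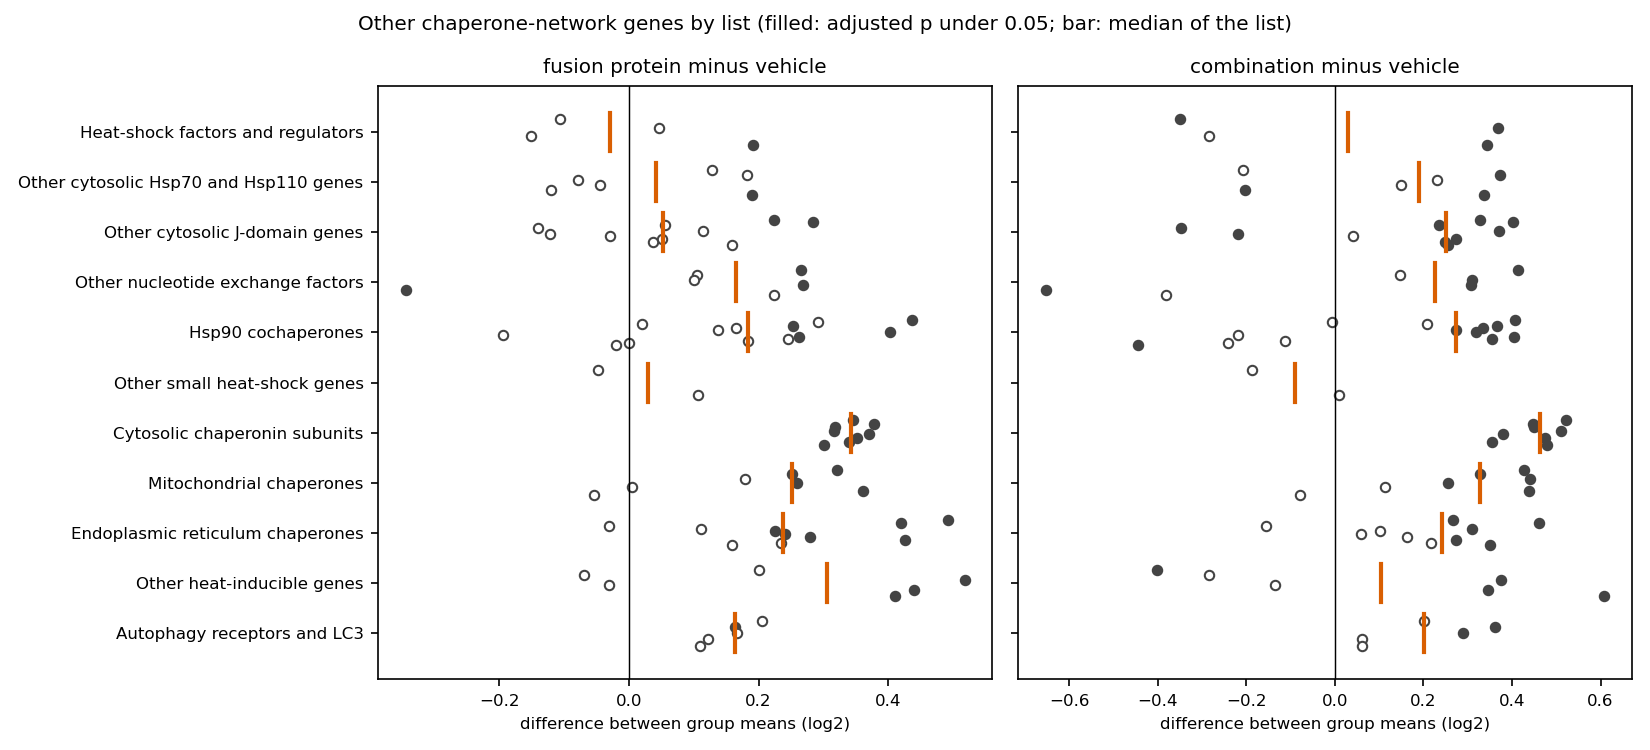
Log2 difference from vehicle (horizontal axis) of the 77 tested genes of the 11 chaperone lists for the fusion protein (left) and the combination (right). Each circle is a gene, filled where the adjusted p was under 0.05, and the orange bar is the median of its list. All 8 chaperonin subunits are filled and to the right of 0 in both panels.

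The cytosolic chaperonin TRiC, which folds actin and tubulin, had all 8 of its subunit genes higher with both treatments, each past the threshold, with medians of 0.34 and 0.46. Cct5 had scaled values of 4853 ± 152 (SD, n = 5) in vehicle, 6312 ± 185 (n = 6) with the fusion protein and 6355 ± 344 (n = 5) with the combination, and all treated libraries, from 5925 upward, lay above the vehicle range of 4654 to 5067. Its difference was 0.37 ± 0.05 with the fusion protein (limma adjusted p = 0.000155). Tcp1 was at 0.52 ± 0.07 with the combination (limma adjusted p = 3.12e-05). Within the samples numbered 12 to 19, 0 and 4 of the 8 passed.

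Partners of Hsp90 rose in part, while 12.0% of all tested genes rose with the fusion protein and 24.2% with the combination. Of 13 tested cochaperones 4 rose with the fusion protein and none fell: Ahsa1, which speeds up the ATPase of Hsp90, by 0.44 ± 0.09 (limma adjusted p = 0.00132), the immunophilin Fkbp4 by 0.40 ± 0.10, Ppid by 0.26 ± 0.08 and Stip1, which links Hsp70 to Hsp90, by 0.25 ± 0.08. With the combination 7 rose, among them Ahsa1 by 0.41, Ppid by 0.40, Stip1 by 0.37 and St13 by 0.34. In that comparison 1 fell, Unc45a, a myosin chaperone, by 0.44, chosen for naming after its value was seen.

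Partners of Hsp70 moved both ways. Of 10 tested J-domain genes 2 rose with the fusion protein, Dnaja2 by 0.28 ± 0.08 and Dnaja1 by 0.22 ± 0.07, and none fell. With the combination 7 rose and 2 fell. Among all tested genes 12.0% rose and 13.7% fell with the fusion protein, and 24.2% rose and 12.3% fell with the combination. Another 6 genes, some of them with a Bag symbol, were listed as nucleotide exchange factors. Of these, Bag1 rose by 0.26 and 0.41 and Bag5 by 0.27 and 0.31 in the fusion protein and combination groups. Bag6 fell, as Bag3 did, by 0.34 ± 0.08 (limma adjusted p = 0.00547) and 0.65 ± 0.09 (limma adjusted p = 2.67e-05). The fall was thus found in 2 of the genes with a Bag symbol, while Bag1 and Bag5 rose. Of 6 other Hsp70 and Hsp110 genes, Hspa14, which acts at the ribosome, rose in both groups by 0.19 and 0.34, and Hspa4, a relative of Hsph1, rose with the combination by 0.37 and stood at 0.18 with the fusion protein (limma adjusted p = 0.133).

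The regulators of the heat-shock response differed between the treatments. Hsf1, the main activator of heat-inducible genes, fell with the combination by 0.35 ± 0.07 (limma adjusted p = 0.0014), stood at -0.11 with the fusion protein (limma adjusted p = 0.289), and was higher with the fusion protein than with the combination by 0.24 ± 0.07 (adjusted p = 0.0191). Hsf2 rose with the combination by 0.37, and its difference of fusion protein minus combination was -0.32 (limma adjusted p = 0.00522). Hsbp1, which binds heat-shock factor 1 and limits its activity, rose by 0.19 and 0.34. Of 6 other heat-inducible genes 3 rose with both treatments, against 12.0% of all tested genes with the fusion protein and 24.2% with the combination. These were polyubiquitin Ubb by 0.52 and 0.38, Mrpl18 by 0.44 and 0.34 and Cacybp by 0.41 and 0.61. Serpinh1, the collagen chaperone of the endoplasmic reticulum, fell with the combination by 0.40 ± 0.15 (limma adjusted p = 0.0434) and was at 0.20 with the fusion protein.

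Chaperones of other compartments also rose, while 12.0% and 24.2% of all tested genes rose with the fusion protein and the combination. Of 7 mitochondrial chaperones 4 rose with the fusion protein and 5 with the combination, including the partners Hspd1 (0.32 and 0.43) and Hspe1 (0.25 and 0.33). Of 10 endoplasmic reticulum chaperones 6 rose with the fusion protein and 5 with the combination, including Hsp90b1, the relative of the Hsp90 genes in that compartment, by 0.42 and 0.46, and Hspa5, the Hsp70 of that compartment, by 0.49 and 0.27. Of the 2 other small heat-shock genes that could be tested, Cryab (0.11 and 0.01) and Hspb6 (-0.05 and -0.19), neither passed. Among the autophagy receptors and LC3 genes, to which Bag3 directs its cargo, Nbr1 rose by 0.16 and 0.36 and Optn rose with the combination by 0.29, of 5 tested.

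Between both treatments, 8 genes of the chaperone lists were higher and 10 lower with the fusion protein, of 77, against 7.35% higher and 22.2% lower among all tested genes. The count moved between 5 without combination replicate 2 and 35 without combination replicate 1, so it rests on single libraries. The share of all tested genes that passed in those fits is not given here, so this move is not a result about the chaperone genes.

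Genes that respond quickly to handling and dissection were set beside the inducible heat-shock genes. The summed scaled value of 8 immediate-early genes ran from 1690 to 3469 in vehicle, from 1697 to 3875 in fusion protein and from 1181 to 1522 in combination libraries. With the combination 4 of 7 tested fell, against 12.3% of all tested genes. These were Junb by 1.07 ± 0.32, Jun by 0.69 ± 0.18, Egr1 by 0.64 ± 0.22 and Ier2 by 0.52 ± 0.11. With the fusion protein none of 7 passed, against 25.8% of all tested genes. The combination is also the group in which Hspa1a, Hspa1b and Hspb1 had their lowest mean, and the part of the immediate-early genes in that was not tested. With trends on GC content and length removed, Hspa1a and Hspa1b turned to lie above vehicle in the combination, while Hspb1 kept its direction. For the immediate-early genes no value with these trends removed is given here.

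Markers of the cell types of a ganglion were present in all groups. The summed scaled value of 8 sensory neuron markers ran from 145392 to 191219 in vehicle, from 142452 to 228115 in fusion protein and from 156394 to 195977 in combination libraries, and 1 of the 8 fell with the fusion protein, while 2 rose and 1 fell with the combination. Macrophage markers summed to 518 to 759 with vehicle, 643 to 1547 with the fusion protein and 588 to 883 with the combination, and 3 of 5 rose with the fusion protein. Fibroblast markers summed to 11102 to 13895, 12767 to 16001 and 15009 to 20875 in the same order, with 1 of 4 higher and 1 lower with the fusion protein and 2 higher and 1 lower with the combination. Of 5 satellite glia markers 1 fell with the fusion protein and 3 rose with the combination. Among all tested genes 25.8% changed with the fusion protein and 36.5% with the combination. Several of these counts lie near or below those shares, and the neuron and fibroblast lists moved both ways with the combination. Single markers of several cell types thus differed between the groups, and their part in the differences of the heat-shock genes was not tested.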

How the data were processed

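RNA-seq of polyA-selected RNA was available for 16 libraries. Per the submitters' processing notes, FastQC, STAR, HTSeq and DESeq2 were used with build GRCm38, and versions are not given there. The authors deposited 1 table of variance-stabilised log2 values for 36722 genes. A GC percent column, which per the file headers describes each gene, was used only for the GC trends. The table also holds deposited p-value columns that name no comparison and were not used. With x as 2 to the power of the value, and x0 that of the lowest value (5.99), the square of x minus x0, divided by x, gave whole numbers within 0.01 for 100% of values. These scaled values are not read counts. The step that scaled them is not given in the sources used here, and undetected genes sit at 1.

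Genes with a mean of at least 6.99 (1 above the lowest value) were tested: 13385 genes. All 16 libraries entered 1 fit with lmFit and contrasts of limma 3.58.1 (R 4.3.3), moderated by eBayes with a variance trend and robust setting. Tests were two-sided, p-values were adjusted after Benjamini-Hochberg and the threshold was 0.05. The script was tested on simulated data. Groups came from the sample titles. The 10 genes and the lists were chosen with earlier results of these data known. All 10 genes are named, up to 4 genes of lowest p per list, and the 3 genes most like each. Coordinates and exonic lengths are from GENCODE (GRCm38), upstream sequences from RefSeq (GRCm38.p6). Python 3.11.15 decoded values and drew plots. Alternatives are given in the closing section.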

Additional observations from a re-analysis of the deposited data

How the results depend on the processing

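Hspa8 and Bag3 kept their direction and their calls against vehicle under all alternatives but the restriction to samples numbered 12 to 19. Of 904 values of single genes under alternatives, 804 kept direction and side of the threshold. The share of all tested genes called stands in brackets after each count of the 10 from a single setting. It is not given for the ranges without single libraries or for the replicate block. Those counts therefore say nothing about the 10 genes against all genes. With the fusion protein against vehicle 2 were called (25.8%), 0 in samples 12 to 19 (1.85%) and 4 with GC and length trends removed and the late number as covariate (26.2%), and 2 to 3 when single libraries were left out. With the combination 4 were called (36.5%), 1 in samples 12 to 19 (5.71%), 2 with quantile normalization (33.2%), 2 with trends removed and the late number (12.6%), 2 at a threshold of 0.01 (22.3%), and 2 to 6 without single libraries. Between treatments 2 were called (29.5%), 1 with the stricter filter (34.1%), 1 without filter (12.6%), 1 with trends removed and the late number (6.81%), 0 with trends removed (11.7%), 0 at a threshold of 0.01 (6.78%), and 1 to 2 without single libraries.

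Directions turned as follows, and the cause was not tested. With trends removed: Hspb8 -0.018 (fusion protein), -0.0066 (combination) and -0.011 (between treatments), Hspa1a 0.12 (combination) and -0.010 (between), Hspa1b 0.062 (combination). With trends removed and the late number: Hspb8 -0.026 and -0.053 against vehicle, Hspa1a 0.25 (combination) and -0.12 (between), Hspa1b 0.11 (combination), Hsph1 0.069 and Bag3 -0.059 (between). With quantile normalization: Hspb8 -0.10 (combination), and between treatments Hsph1 0.061, Hsp90aa1 0.058 and Dnajb1 0.0087. With the late number: Hspb8 -0.051 (combination), Hsp90ab1 0.065 (between), and in samples 12 to 19 -0.074 and 0.092. Hsp90aa1 between treatments was 0.015 with median centring and -0.14 to 0.046 without single libraries, turning without fusion protein replicate 6 and combination replicates 2, 3 or 4. Hspa1a with the fusion protein was -0.0022 (without vehicle replicate 3) to 0.062.

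A replicate block gave 3, 4 and 1 called genes in the 3 comparisons, and Hsp90aa1 0.032 between treatments. The numbers do not pair the libraries: of 15 same-numbered pairs 6 had a correlation of deviations above 0.1 (range -0.22 to 0.62), and 3 of 16 libraries correlated best with their own number. Samples numbered 1 to 8 hold no combination library and give no value there. The read depth is unknown, so the counting error of the weakly expressed Hspa1a and Hspa1b cannot be given.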
